A study of Mus musculus with 12 samples.

Results

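In mouse fibroblasts that re-express HP1γ, 10013 regions of RNA were enriched in the HP1γ immunoprecipitate (IP) over the chromatin input without treatment. Described here are the 5130 of them (51.2%, exact 95% interval 50.2 to 52.2) that lay in a group and had no counterpart after treatment with the phorbol ester PMA. A region counted as grouped when another untreated region on its chromosome lay within 10000 bp, measured from edge to edge. It counted as unpartnered when no region of the PMA list overlapped it by even 1 bp. Over the whole untreated list, 63.7% of regions were grouped and 84.5% were unpartnered. The rule used both shares, and nothing is read from them.

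HP1γ is encoded by Cbx3 and reads methylated histone H3 through its chromodomain. It is known from heterochromatin and also from the bodies of transcribed genes, where it has been linked to elongation and splicing, and HP1 proteins can bind RNA through their hinge. RNAchIP starts from nuclei fixed with little formaldehyde, whose chromatin is solubilised by DNase and sonication; the RNA that comes down with HP1γ is then compared with that of the chromatin before precipitation. RNA held on chromatin is rich in nascent and unspliced transcripts.

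The cells are lines derived from mouse embryonic fibroblasts in which HP1γ was knocked out and then re-expressed, so every group shares that background. The 4 groups of 3 biological replicates are input and anti-HP1γ IP of untreated cells, and input and anti-HP1γ IP of cells given 100 nM PMA in DMSO for 30 min. PMA activates protein kinase C and served as the stress. The labels name no DMSO-only control, number of clones, mock IP or IP from cells without HP1γ for these libraries. Enrichment over input therefore cannot be told apart from unspecific recovery of RNA.

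The values are those of 2 region lists, 1 per condition, joined by the authors over replicates. They hold no value per library, so no region has an error between replicates, read depth is unknown, and no test of PMA against no treatment was possible at a region. All values below come from the contrasts that chose the regions and are given as a description, with no test. Intervals cover counting error only, and regions of a group are not independent. Positions refer to mm9, per the submitters' processing notes. They were not set against an annotation, so the regions are given by position and are assigned to no gene or part of a gene.

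An unpartnered region is not shown to have lost RNA. Each region joined at least 3 peaks called in single replicates. The untreated list drew on replicates 1, 2 and 3, with 11868, 11036 and 10480 peaks. The PMA list drew on replicates 2 and 3 only, with 4382 and 4004. These counts are of peaks kept in the lists, not of all peaks called. The highest peak numbers in the region names were 87348, 40773 and 33450 for untreated replicates 1, 2 and 3. For PMA replicates 2 and 3 they were 49502 and 92243. Of the 5130 regions, 3717 (72.5%, 71.2 to 73.7) had exactly 1 peak from each replicate, a make-up that cannot reach 3 peaks from 2 replicates. Over the whole untreated list this share was 69.9%. Among grouped regions with a partner it was 47.7% (44.9 to 50.5), and among isolated unpartnered regions 75.7% (74.2 to 77.1). When the peaks of 1 untreated replicate were dropped and at least 3 others still required, only 303, 422 and 596 unpartnered grouped regions were left without replicate 1, 2 and 3.

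Unpartnered grouped regions were moderately enriched and of ordinary width. Their fold enrichment of IP over input, read here as the authors' mean over the joined peaks, ran from 1.63 to 11.3. Its median was 3.55 (95% interval of the median 3.51 to 3.58, quartiles 2.98 and 4.19). The 3328 isolated unpartnered regions had a higher median, 3.80 (3.76 to 3.84), and the 1247 grouped regions with a partner a similar one, 3.58 (3.54 to 3.65). A fold of at least 5 was reached by 433 unpartnered grouped regions (8.44%, 7.69 to 9.23) and by 9.97% of all untreated regions. For isolated unpartnered regions the share was 12.6% (11.5 to 13.7). The lower fold thus went with grouping, and partnered and unpartnered grouped regions lay close together.

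Width separated the classes in another order. The median width was 527 bp (519 to 533; quartiles 411 and 678), against 480 bp (472 to 487) for isolated unpartnered regions and 729 bp (705 to 751) for grouped regions with a partner. Without untreated replicate 1, 2 or 3 the median of the grouped unpartnered regions was 820, 790 and 755.5 bp, with bounds still joined over all replicates. A wider region has more chance to meet a PMA region, so the rule bears on the difference from partnered regions. The median −log10 q was 3.66 (3.59 to 3.74), between 3.29 in isolated unpartnered and 4.12 in grouped partnered regions. A −log10 q, also read as a mean, below that of a q of 0.05 was found in 162 regions (3.16%), close to the 3.34% of all untreated regions. Together the 5130 regions covered 2.97 Mb.

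**Figure D1:**
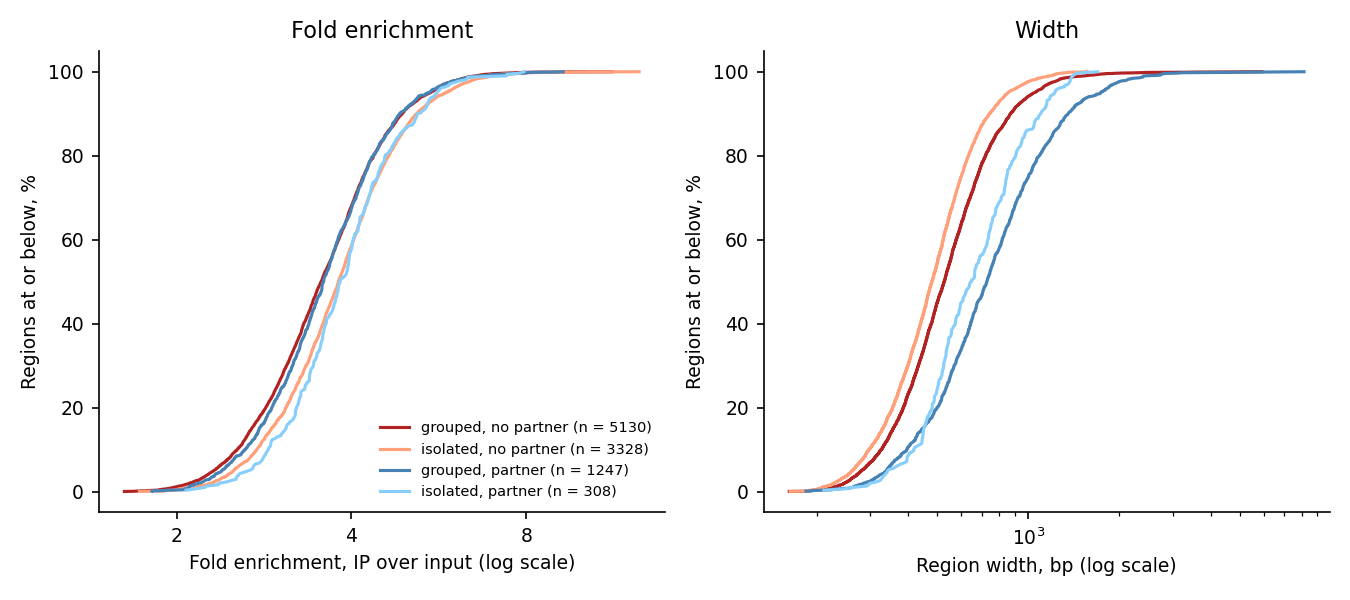
Cumulative share of untreated regions (y axis, %) by fold enrichment of IP over input (left, log scale) and by width in bp (right, log scale), for the 4 classes of region. By fold the curves pair up by grouping, with medians of 3.55 and 3.58 for grouped and 3.80 and 3.82 for isolated regions, and by width they pair up by partner, with medians of 527 and 480 bp without and 729 and 648 bp with one.

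The 5130 regions fell into 1833 groups, where a group is a run of untreated regions chained by gaps of at most 10000 bp. Without untreated replicate 1, 2 or 3 there were 174, 232 and 301 groups. Of the 1833, 913 (49.8%) were pairs, 324 held at least 5 regions and 60 held at least 10. The median group spanned 7.46 kb, the longest 116 kb, and all of them 18.0 Mb, of which 21.9% was covered by regions. The unpartnered regions were not gathered in a few places, since the 10 fullest groups held 201 of them (3.92%). Their nearest neighbours lay at a median gap of 1986 bp (quartiles 704 and 4500). For 204 regions (3.98%) the gap was 100 bp or less, and for 1099 (21.4%) it was over 5000 bp.

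Many of these groups also held regions that were found again after PMA. In 1133 groups (61.8%) no region had a partner, and these held 2964 unpartnered regions (57.8%, 56.4 to 59.1). That share of regions was 95.5% and 91.8% without PMA replicate 2 and 3, and 44.6%, 48.8% and 48.7% without untreated replicate 1, 2 and 3. The other 700 groups held 2166 unpartnered regions beside 1159 partnered ones. Groups without any partnered region were short, with a median of 2 regions and 6.02 kb, and none held more than 9. Groups with one had a median of 4 regions and 10.2 kb, and all 60 groups of at least 10 regions were of this kind. Since a larger group has more chances to hold a partner, the share of partnered regions is the plainer measure. Over all grouped regions it was 13.8% (12.3 to 15.5) in pairs, 16.6% in groups of 3, 19.6% in groups of 4 to 5, 26.1% in groups of 6 to 9, 30.1% (26.6 to 33.9) in groups of 10 to 19 and 22.3% (17.0 to 28.3) in the 8 groups of 20 or more. The median width of grouped regions went from 513.5 bp in pairs to 712.5 bp in the largest groups, and its part in the partnered share was not tested.

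Unpartnered regions of larger groups had lower folds. Their median was 3.75 (3.69 to 3.81) in pairs, 3.62 in groups of 3, 3.56 in groups of 4 to 5, 3.38 in groups of 6 to 9, 3.38 in groups of 10 to 19 and 2.62 (2.48 to 2.70) in groups of 20 or more. The 174 regions of that last class came from only 8 groups, whose own medians ran from 2.14 to 3.48, so its value rests on few places. A fold of at least 5 was reached by 183 of 1632 unpartnered regions in pairs (11.2%) and by 2 of 174 in the largest groups (1.15%). Partnered regions showed the same order at the ends, with medians of 3.77 in pairs and 2.69 in groups of 20 or more. The median −log10 q of unpartnered regions went the other way, from 3.45 in pairs to 4.86 in the largest groups. The regions of the largest groups thus had low folds with high −log10 q, and they were also wider, at a median of 664.5 bp against 493 bp. Median widths within these 8 groups ran from 597 to 1322 bp.

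**Figure D2:**
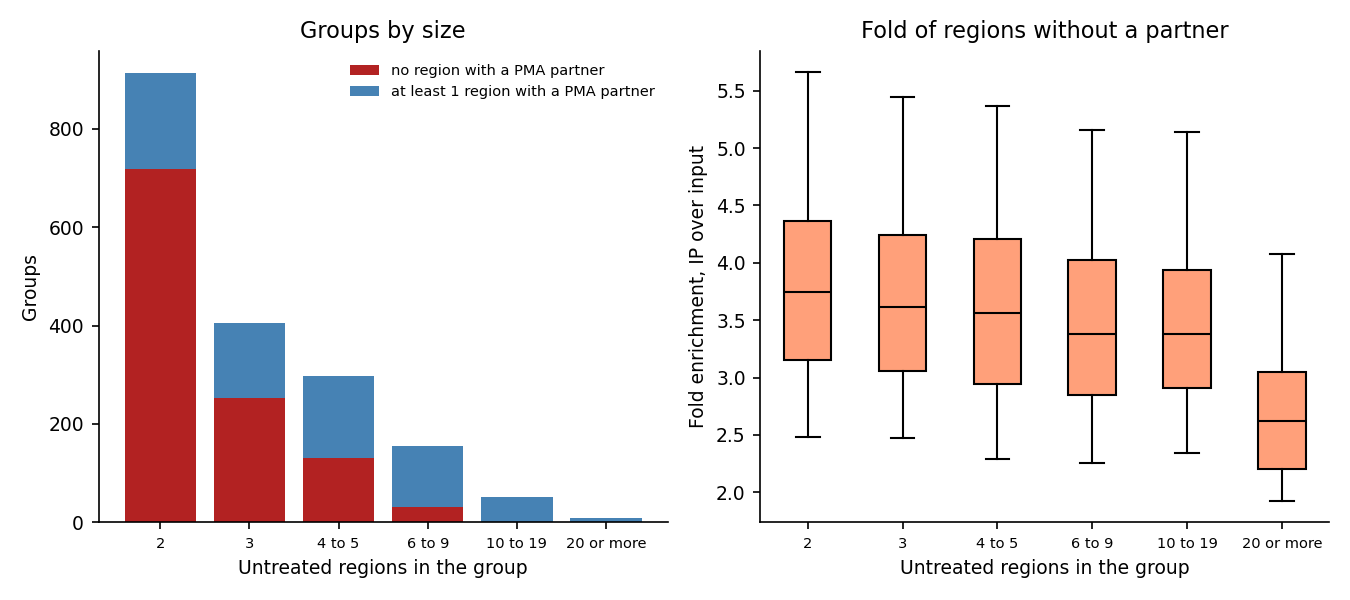
Left, number of groups (y axis) that hold an unpartnered region, by number of untreated regions in the group, split by whether any of them has a PMA partner; right, fold enrichment of the unpartnered regions in groups of each size, with the median, quartiles (box) and 5th to 95th percentiles (whiskers). Pairs are mostly without a partnered region (719 of 913), every group of 10 or more has one, and the median fold goes from 3.75 in pairs to 2.62 in groups of 20 or more.

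The fullest group lay on chromosome 10 (119791845 to 119908212) and held 29 unpartnered and 3 partnered regions over 116 kb, with 51.9% of that length covered. Folds of its unpartnered regions were low and even, from 1.75 to 2.56 with a median of 2.14, and their median width was 1322 bp. Its partnered regions had folds of 2.29, 2.50 and 1.81 and lay in its left part, the last ending at 119842531. Beyond them came 16 unpartnered regions in a row over 64.9 kb, the last of them 62.9 kb from any PMA region. The other 13 lay before or between the partnered regions. In the run of 16, 6 regions had no peak from replicate 3, among them the widest, of 4734 bp (119875904 to 119880637, fold 1.75), with 1 peak from replicate 1 and 5 from replicate 2. Without untreated replicate 1, 2 or 3, the fullest group of the list held 10, 9 and 18 unpartnered regions.

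A group on chromosome 17 (12934248 to 13011699) had the opposite arrangement. Its 26 unpartnered and 15 partnered regions alternated along 77.5 kb, covering 69.0% of it, and no unpartnered region was more than 3577 bp from a PMA region. The strongest unpartnered region stood at the left edge (12934248 to 12934640, fold 4.44), and the median fold was 2.19. The longest run of unpartnered regions there was 6, over 7.57 kb. On chromosome 14 (69997516 to 70087293), 29 unpartnered and 8 partnered regions were likewise mixed over 89.8 kb, with a median unpartnered fold of 2.66 (1.91 to 3.51) and distances to a PMA region of 53 to 9509 bp.

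On chromosome 15 (63934576 to 64033417) a long run of unpartnered regions again followed the last partnered one. The group held 26 unpartnered and 3 partnered regions over 98.8 kb, and its unpartnered regions outside that run lay between partnered ones. All PMA regions lay in its left part, and the 16 regions from 63977255 onward, over 56.2 kb, had none, the last being 58.5 kb away. That stretch opened with the strongest region of the group (63977255 to 63977994, fold 5.46), and the lowest fold in the group was 2.26. A group on chromosome 11 (32263511 to 32326123) held 18 unpartnered and 5 partnered regions with a higher median fold, 3.48. Its strongest region (32303921 to 32304614, fold 5.93) lay in a run of 12 unpartnered regions over 28.8 kb.

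The other 5 of the 10 fullest groups also held partnered regions. They had 16 of 20 regions unpartnered on chromosome 9 (56051015 to 56114246, median fold 2.60), 15 of 20 on chromosome 11 (80303514 to 80368714, 3.07), 15 of 22 on chromosome 17 (3326625 to 3376995, 2.55), 14 of 16 on chromosome 6 (28749198 to 28797769, 3.38) and 13 of 14 on chromosome 19 (42058093 to 42106971, 2.94). In all 10 fullest groups the median fold was below that of the 5130 regions, 3.55. These groups were picked by their number of unpartnered regions. Runs of at least 5 successive unpartnered regions occurred in 129 groups, of at least 8 in 27 and of at least 10 in 7. Only 1247 of all 6377 grouped regions (19.6%) had a partner, and whether the runs exceed what that share gives was not tested.

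**Figure D3:**
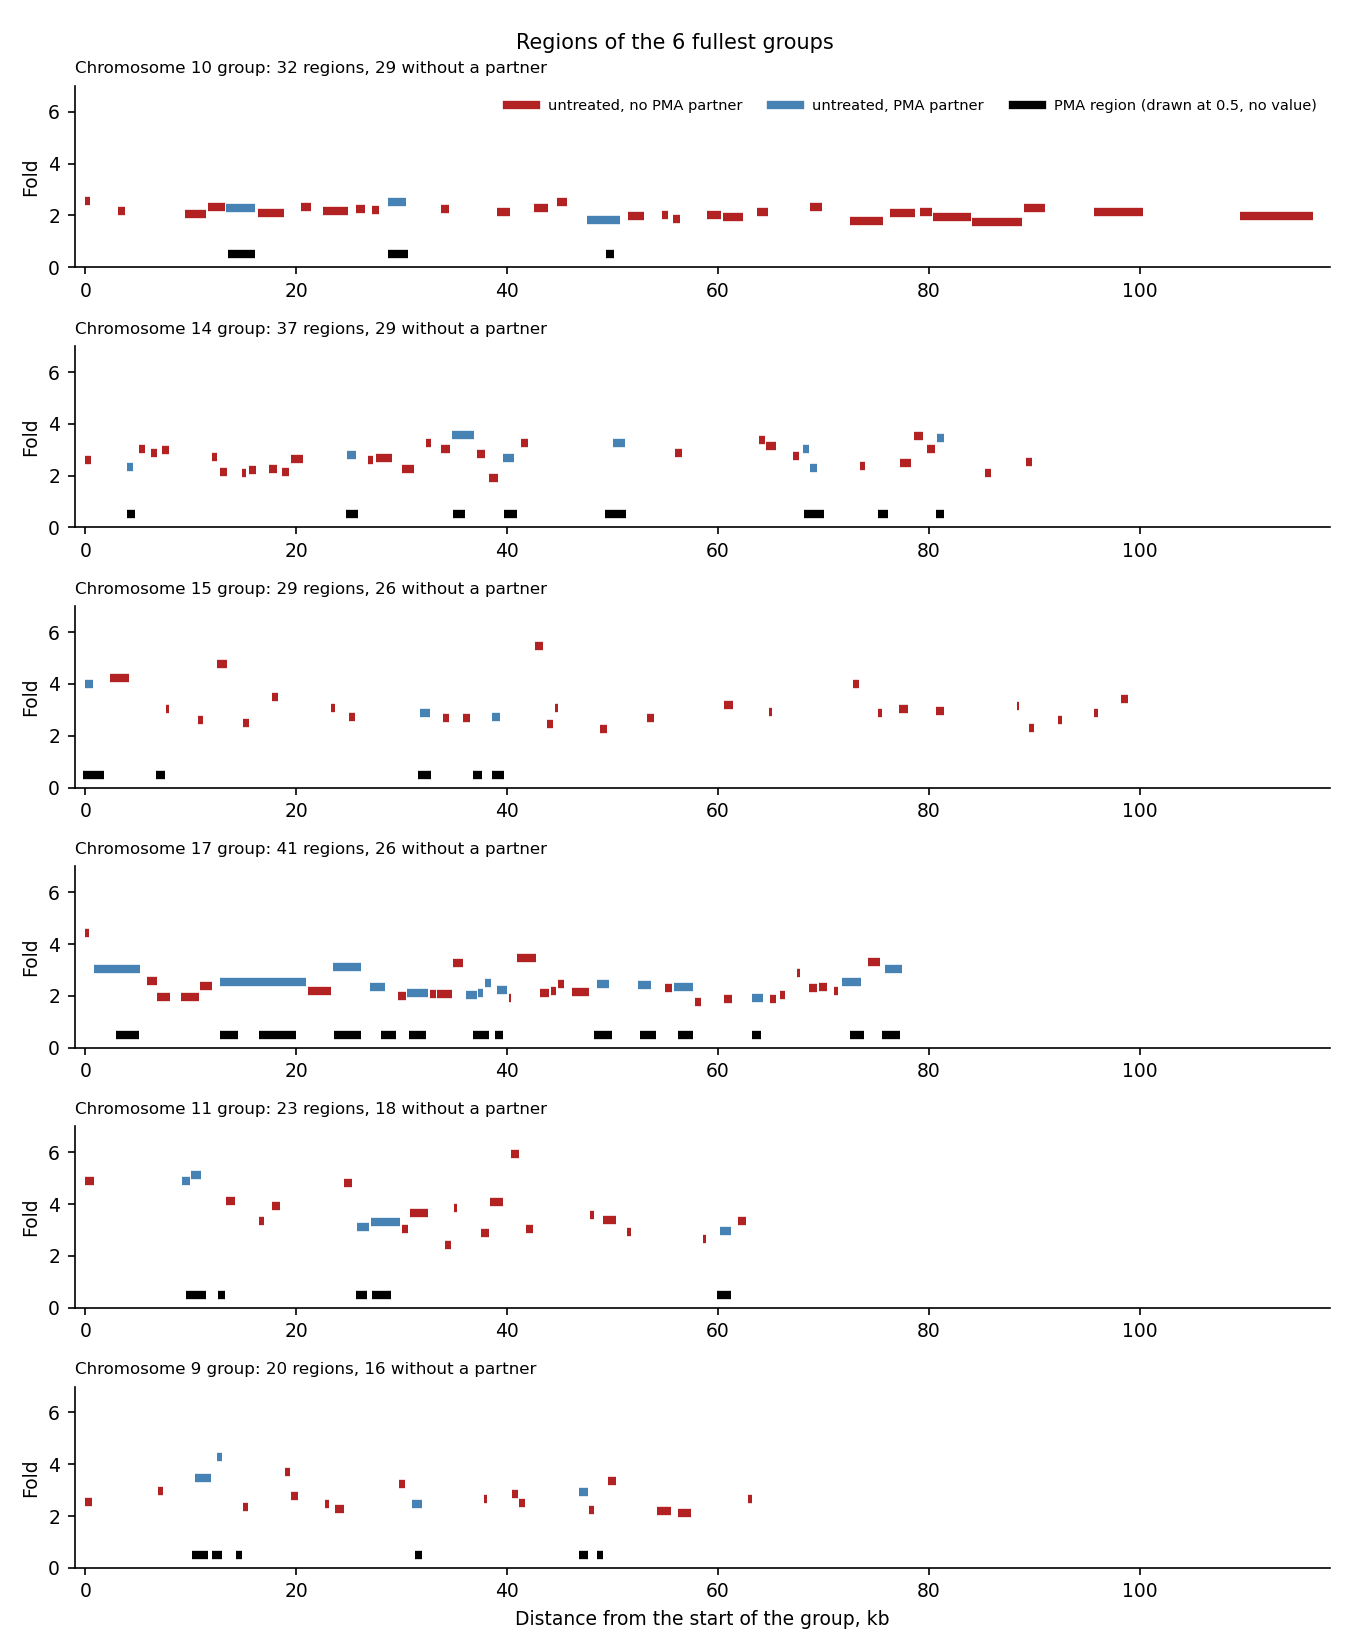
Regions of the 6 groups with the most unpartnered regions, drawn to scale by distance from the start of the group (x axis, kb) and fold enrichment of IP over input (y axis); red bars are untreated regions without and blue bars with a PMA partner, and black bars show where PMA regions lie, with no value. The groups on chromosomes 10 and 15 end in 16 red bars with no black bar beneath, over 64.9 and 56.2 kb, while red and blue bars alternate in the chromosome 17 group.

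The fullest groups with no partnered region at all were smaller. A group on chromosome 17 (87490057 to 87527563) had 9 regions over 37.5 kb, with folds of 2.22 to 5.57 and a median of 4.02. Another 9 lay on chromosome 9 (75233515 to 75261608) over 28.1 kb, at a lower median of 2.55. Groups of 8 were found on chromosome 1 (14268619 to 14300188, median fold 2.82), chromosome 3 (30374505 to 30403585, 2.98) and chromosome 6 (5997481 to 6017299, 3.47). No PMA region fell within the span of any of these 5. The nearest one was 797 bp away for the chromosome 17 group, 920 bp for chromosome 9 and 1906 bp for chromosome 3, but 13105 bp for chromosome 1 and 30136 bp for chromosome 6. Some groups without a partner thus ended just beside a PMA region and others stood clear of any.

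Among the 195 groups with at least 5 unpartnered regions, median folds ran from 2.07 to 5.15. The lowest were on chromosome 9 (41390878 to 41404411), at 2.07 with 5 regions of a median width of 1109 bp, on chromosome 1 (170293832 to 170319548), at 2.08 with 6 regions, and on chromosome 14 (69877505 to 69903037), at 2.10 with 7. The highest were on chromosome 4 (104878307 to 104898721), at 5.15 with 5 unpartnered beside 4 partnered regions, on chromosome 9 (71373104 to 71411186), at 4.94 with 7 beside 1, and on chromosome 6 (90655509 to 90689313), at 4.80 with 5 beside 1. In the last of these, folds spread from 3.29 to 6.99 within 33.8 kb.

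The 10 strongest single regions stood in groups of 2 to 7 regions, and small groups were common, with 1632 of the 5130 regions in pairs. They were chosen for their fold, which favours a stand above their neighbours. The highest fold, 11.3, belonged to a 448 bp region on chromosome 3 (122204219 to 122204666), whose only neighbour, 89 bp away at lower coordinates, had a fold of 4.20. The next PMA region was 775 kb away. An 882 bp region on chromosome 5 (66710828 to 66711709) reached 9.80, while the other 4 unpartnered regions of its group had folds of 2.98 to 4.38. On chromosome 6, a 1061 bp region (48347955 to 48349015) had 9.46 and lay only 134 bp from a PMA region, beside a partnered region of fold 5.12. A pair on chromosome 17 was even: the unpartnered region (26329348 to 26330502) had 8.99 and its partnered neighbour, 90 bp away, 8.96. That region lay 80 bp from a PMA region, so the call of no partner rests there on a gap narrower than the region itself.

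The other 6 of the 10 highest had folds of 7.82 to 8.95. They lay on chromosome 7 (fold 8.95 at 86490041 to 86490587 and 7.98 at 126120857 to 126121763), chromosome 3 (8.45, 83755657 to 83756188), chromosome 15 (fold 8.35, 27790506 to 27791367), chromosome 10 (fold 7.85, 110360321 to 110360865) and chromosome 18 (fold 7.82, 32571209 to 32571701). All 10 had 3 peaks, 1 from each replicate. The order by −log10 q differed, and chromosome 2 came first with a region of 798 bp (37405997 to 37406794), at 23.1 with a fold of 5.91, followed by one on chromosome 17 (33520365 to 33521326), at 22.97 with a fold of 6.60, which stood 327 kb from the nearest PMA region. Then came the chromosome 6 region above, at 22.7, a 1646 bp region on chromosome 19 (17292963 to 17294608), at 22.4 with a fold of only 4.84, and one on chromosome 14 (26404677 to 26405498), at 21.03 with a fold of 6.19.

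The few widest regions had low folds, although the widest quartile of the 5130 had a median fold of 3.67 and the narrowest one of 3.43. The first and second by width lay in 1 group on the X chromosome (100656636 to 100678524), which held 4 regions over 21.9 kb, covered 63.9% of it and was 2.50 to 2.51 Mb from any PMA region. The 5919 bp region at its left end (100656636 to 100662554) had a fold of 1.63, the lowest of all 5130, and the 5366 bp region (100668938 to 100674303) had 1.69. Between them lay a 296 bp region (100664824 to 100665119) with a fold of 2.66 and a −log10 q of 14.5, and the group ended with a 2414 bp region (100676111 to 100678524) at 2.26. Both wide regions had 1 peak from replicate 1, with 6 and 4 from replicate 2 and 2 and 5 from replicate 3. All 8 regions of at least 3 kb had 1 peak from replicate 1 and at least 2 from replicate 2. They lay in 2 groups, that on X and that on chromosome 10, and had a median fold of 1.86. Of the 301 regions of at least 1 kb, which had a median fold of 3.47, 162 had several peaks from replicate 1, 123 from replicate 2 and 112 from replicate 3. Over all 5130 regions, 16.3%, 10.4% and 6.69% had several peaks from replicates 1, 2 and 3. Wider regions joined more peaks, with a mean of 3.01 in the narrowest quartile and 3.78 in the widest. The narrowest regions were 162 bp on chromosome 2 (20681869 to 20682030, fold 4.60), 178 bp on chromosome 3 (66800448 to 66800625, fold 3.96) and 181 bp on chromosome 10 (12378181 to 12378361, fold 1.99).

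Neighbours tended to have like folds. Of 2928 pairs of successive unpartnered regions, 2512 (85.8%) were within 1.5-fold of each other and 48 (1.64%) more than 2-fold apart. Their median absolute difference in log2 fold was 0.26, against 0.33 between successive isolated unpartnered regions, so regions far apart also had close folds. The share within 1.5-fold was not computed for isolated regions. The correlation of log2 fold within the 2928 pairs was 0.43 (Pearson, with a Spearman rho of fold of 0.42). It was 0.50 for the 428 pairs within 500 bp and 0.32 for the 806 pairs over 5000 bp apart. Successive isolated unpartnered regions, at a median gap of 216 kb, gave 0.078 over 3308 pairs. These are correlations across pairs of regions that come from the same libraries and may lie on 1 transcript, and pairs that share a region are not independent. Over the 1596 groups with at least 2 unpartnered regions, the SD of log2 fold was 0.23 between groups and 0.29 within them, so 38.6% of the variance lay between groups.

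**Figure D4:**
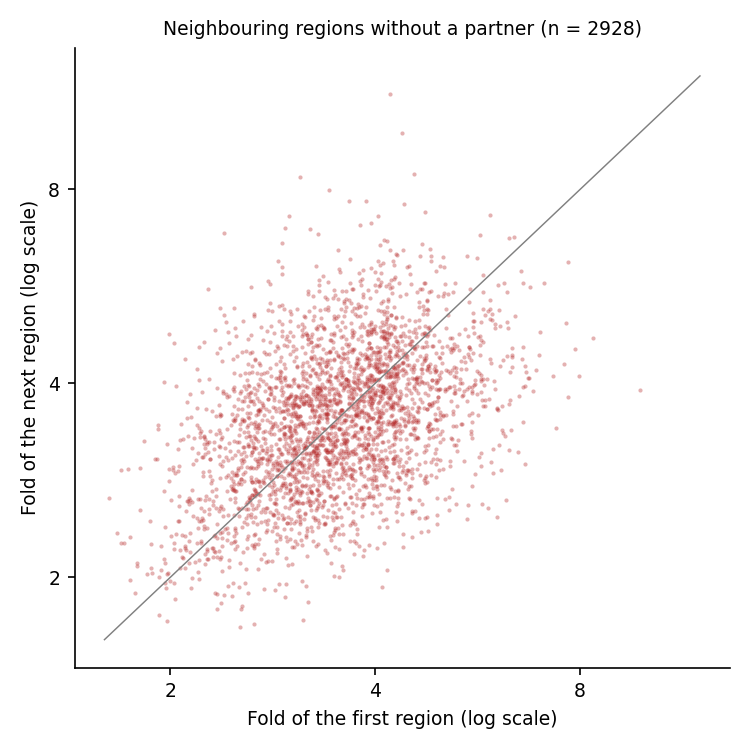
Fold enrichment of IP over input of each unpartnered region (x axis, log scale) and of the next unpartnered region in its group (y axis, log scale); each point is 1 of 2928 pairs and the line marks equal folds. Points gather along the line with wide scatter, at a Pearson r of 0.43 for log2 fold.

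Where an unpartnered and a partnered region were direct neighbours, their folds differed little. Over 1256 such pairs, at a median gap of 2146.5 bp, the unpartnered region had a median fold of 3.44 and the partnered one 3.58, and the unpartnered region was the stronger in 566 (45.1%). Its median width was 554 bp against 746.5 bp, and it was the narrower in 876 pairs (69.7%). Partnered neighbours thus stood out by width more than by fold, and the rule favours that.

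The distance from unpartnered grouped regions to a PMA region varied widely. The median distance was 15.3 kb (14.0 to 16.9). A PMA region lay within 1 kb of 510 of them (9.94%, 9.14 to 10.8), within 10 kb of 2233 (43.5%, 42.2 to 44.9) and within 100 kb of 3779 (73.7%), while 331 (6.45%) had none within 1 Mb. The share within 10 kb depended on the replicates joined: it was 69.97%, 67.5% and 65.6% without untreated replicate 1, 2 and 3, and 2.94% and 5.10% without PMA replicate 2 and 3, where only 72 and 121 PMA regions were left. For isolated unpartnered regions the median was 161 kb and the share within 10 kb was 7.21% (6.36 to 8.14). The rule in part sets this difference, because a PMA region near an untreated one often has an untreated partner of its own, which makes its neighbour grouped. In groups without any partnered region the share within 10 kb was 12.4% (11.3 to 13.7) and the median distance 76.1 kb, and in groups with one 86.1% and 3.65 kb. The definition largely sets this contrast too. A partnered region overlaps a PMA region, and gaps within a group are at most 10000 bp. Of the 1133 groups without a partnered region, 56 held PMA regions in the gaps between their regions, 62 in all, and 534 (47.1%) had none within 100 kb of any unpartnered region. The spans of all 1833 groups held 1236 PMA regions, or 47.4% of the PMA list, and 183 of these had no untreated partner.

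The fold of unpartnered regions was lower within 100 kb of a PMA region than beyond. Its median was 3.53 (3.40 to 3.63) within 1 kb, 3.45 (3.41 to 3.49) from there to 10 kb, 3.50 (3.44 to 3.56) to 100 kb, 3.75 (3.67 to 3.81) to 1 Mb and 3.73 (3.62 to 3.83) beyond. The median size of the group went from 6 regions to 2 over the same steps. The farthest unpartnered regions were 3 neighbours on chromosome 12 (56448015 to 56459826), with folds of 3.61, 4.88 and 4.76 and 14.5 Mb to the nearest PMA region, and 2 others on the same chromosome (55753475 to 55753899, fold 4.12, and 55754883 to 55755484, fold 2.89), at 13.9 Mb.

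**Figure D5:**
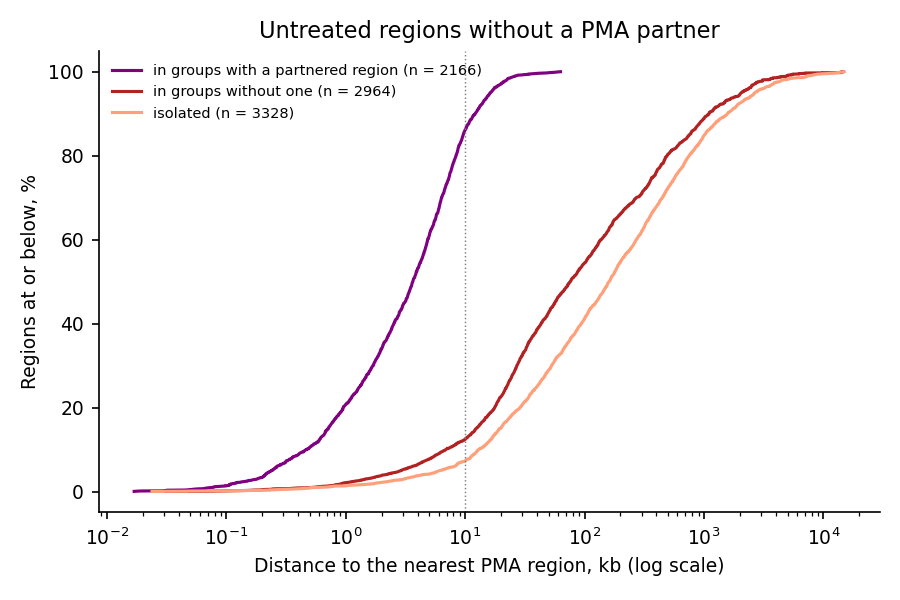
Cumulative share of untreated regions without a PMA partner (y axis, %) by distance to the nearest PMA region (x axis, kb, log scale), for regions in groups with a partnered region, in groups without one, and isolated; the dotted line marks 10 kb. At that distance the curves stand at 86.1%, 12.4% and 7.21%, an order that the definition of groups and partners largely sets.

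The regions next to each threshold of the rule were as follows. The largest gap that still made a pair was 9995 bp, on chromosome 17 (46253444 to 46253842 and 46263838 to 46264586), with folds of 4.05 and 4.16. The smallest that did not was 10035 bp, on chromosome 10 (69423522 to 69423923 and 69433959 to 69434420), with folds of 4.84 and 4.29. The unpartnered regions nearest to a PMA region missed it by 17 bp on chromosome 18 (36672018 to 36672260, fold 2.44) and by 18 bp on chromosome 10 (126906391 to 126907325, fold 2.69). The smallest overlaps that made a partner were 3 bp on chromosome 19 (46720240 to 46721492, fold 5.92) and 5 bp on chromosome 18 (69638346 to 69638913, fold 2.54).

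Unpartnered grouped regions were found on all 19 autosomes and the X chromosome, in shares close to those of the whole untreated list. Chromosome 10 held the most, 425 (8.28%, 7.54 to 9.07, against 7.81% of the list), and the X the fewest, 80 (1.56%, 1.24 to 1.94, against 1.498%). They made up between 39.5% (34.3 to 44.9) of the untreated regions of chromosome 12 and 57.2% (52.9 to 61.4) of those of chromosome 14. Median folds were lowest on chromosomes 15 and 14, at 3.177 and 3.178, and highest on chromosome 7, at 3.81. On the X, 11 of 150 untreated regions (7.33%) had a partner, against 10.8% to 19.3% on the autosomes. The X value rests on these 11 regions, and its difference from chromosome 16, the lowest autosome, was not tested.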

How the data were processed

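The deposited lists are in MACS2's narrowPeak layout and hold no strand. MACS2 2.1.0, STAR 2.5.0a, cutadapt 1.11, deepTools, featureCounts 1.4.6-p3 and mm9 stand in the submitters' processing notes, without roles, and how peaks were called and filtered is not given in the sources used here. Region names list the peaks joined, so the deposited fold (a ratio of IP over input), −log10 q and score are read as means the authors took over those peaks. The deposited score times the number of peaks came out whole (tolerance 0.001) in each of the 10013 untreated regions, and for fold and q this was not tested. The gene tables at hand are of GRCm38, and 95 untreated regions on 7 chromosomes reach past its last gene, so they were not used.

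Overlaps, gaps, groups, medians with order-statistic intervals and shares with exact Clopper-Pearson intervals were computed in Python 3.11.15 (numpy 2.4.6, scipy 1.17.1, pandas 2.3.3, matplotlib 3.10.9). The grouping code was tested on simulated lists. Starts are printed 1-based. The regions described and the measures were chosen with earlier results of these data known. Regions and groups are named by rule: the 10 highest by fold, 5 by −log10 q, 3 widest, 3 narrowest, 5 farthest from a PMA region, those next to each threshold, the 10 fullest groups, the 5 fullest without a partner, and the 3 highest and 3 lowest median folds. The files hold no values per library, so no model over the 12 libraries was run.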

Additional observations from a re-analysis of the deposited data

How the results depend on the processing

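Of 130 alternative values for 10 results, 67 stayed within the interval of the value reported (counts within 1.5 times) and 63 moved. Only the 3 differences between grouped and isolated unpartnered regions could reverse, by a change of sign, and none did. These 3 differences were added after seeing the data. Grouped regions had the lower median fold, the greater width and the larger share within 10 kb of a PMA region under each of the 13 alternatives. For the share within 10 kb, the rule in part sets the difference under each alternative, so nothing is read from that agreement.

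With a grouping gap of 1000 bp there were 1663 regions in 867 groups, at most 10 in a group, with a median fold of 3.41, a width of 561 bp, 53.0% within 10 kb of a PMA region, 74.4% in groups without a partnered region, and differences from isolated regions of 65 bp and 29.6 percentage points. A gap of 5000 bp gave a fold of 3.50, 535 bp, 47.6% and 62.9%. A gap of 20000 bp gave 38.5% and 53.5%, and a difference of 32.7 points. Counting a PMA region within 1000 bp as a partner gave 37.3%, 60.3% and 31.3 points. With a −log10 q of at least 3 in both lists, 2823 regions in 1088 groups remained, with a fold of 3.82 (−0.36 against isolated regions), 570 bp and 59.4% in groups without a partnered region. Merging rows within 500 bp gave 535 bp, 41.8% and 59.9%.

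Leaving out 1 replicate moved most values. Over the untreated replicates 1, 2 and 3 and the PMA replicates 2 and 3, the number of regions ranged from 303 to 6303, groups from 174 to 1872, the fullest group from 9 to 40, the median fold from 3.29 to 3.56, the width from 551 to 820 bp, the share within 10 kb from 2.94% to 69.97%, and the share in groups without a partnered region from 44.6% to 95.5%. The differences from isolated regions ranged from −0.26 to −0.24 in fold, 60 to 107 bp and 2.71 to 48.03 points. Lists without an untreated replicate keep only regions with 3 peaks from 2 replicates, and without PMA replicate 2 or 3 only 72 or 121 PMA regions remain, by construction. Bounds and folds stay those joined over all replicates. No paired analysis was possible because the lists hold no value per library. Depth is unknown for every library.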
